A study of Mus musculus with 12 samples.

Results

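The transcripts of the mitochondrial genome were followed in Lewis lung carcinoma (LLC) tumours of mice given cisplatin, brivanib or both drugs. Members were all genes on chromosome MT of the deposited table whose name starts with mt-. There were 37 of them among 53801 genes: 13 messenger RNAs (mRNAs), 22 transfer RNAs (tRNAs) and 2 ribosomal RNAs (rRNAs). All 37 passed the filter for testing, a mean of at least 1 FPKM over the 12 libraries. FPKM is the number of fragments per kilobase of transcript, scaled by the fragment total of the library.

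The tumours grew in the flanks of female C57BL/6 mice aged 6 to 8 weeks, from 3 M (M, 1e6) LLC cells in Matrigel per flank. LLC is a transplantable mouse lung carcinoma line. The 4 groups were vehicle (libraries 2, 3 and 5), cisplatin, a platinum compound that forms DNA cross-links (libraries 1, 2 and 3), brivanib, which blocks the receptor kinases of VEGF and FGF (libraries 2, 3 and 5), and the combination of both drugs (libraries 2, 3 and 4). Each group had 6 mice and gave 10 to 12 tumours, so a mouse could carry more than 1 tumour. No label says whether the 3 sequenced tumours of a group came from separate mice, so that p-values reflect only the variation among these samples, which may be technical. Injections of 100 µL into the peritoneal cavity began once tumour volume reached at least 100 mm3 and were given 2 times per week for 4 weeks. The sources used here state no doses.

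The mammalian mitochondrial genome is a small circle that is copied and transcribed inside the organelle by enzymes imported from the cytosol. Both strands are transcribed into long precursors, and most mRNAs and rRNAs are released when the tRNAs lying between them are cut out. The mRNAs encode core subunits of respiratory complexes I, III and IV and of ATP synthase, and the rRNAs and tRNAs serve their translation within the organelle.

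In these coordinates (GRCm38) the members covered chrM:1-15422. Of 36 neighbouring pairs, 12 abutted with no base between them and 9 overlapped, and the widest gap was 32 bases. On the plus strand lay 12 mRNAs, both rRNAs and 14 tRNAs. The minus strand held mt-Nd6 and 8 tRNAs. The longest overlap was 43 bases, between the ends of mt-Atp8 and mt-Atp6 (chrM:7927-7969, plus strand), where a fragment cannot be given to either gene by position. mt-Nd5 and mt-Nd6, on opposite strands, shared 14 bases (chrM:13552-13565, shown on the plus strand). Neither a strand setting nor a strand-marking kit is named in the sources used here. Fragments from opposite strands therefore cannot be told apart, at an overlap or along the rest of a gene. The level of a member may include RNA of the opposite strand. Both overlaps are shown because mt-Atp6 stood apart in 1 library, and mt-Nd5 and mt-Nd6 were among the mRNAs that rose.
mt-Atp8 and mt-Atp6 overlap: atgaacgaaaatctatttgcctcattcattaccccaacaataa
mt-Nd5 and mt-Nd6 overlap: ttaatctcgagtaa

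The tRNAs shown here are mt-Tl1 and mt-Tt, which passed the test in more than 1 comparison, and a run of 5 neighbours at chrM:4950-5326 that all passed in the combination against brivanib. mt-Tl1 (ENSMUSG00000064340, chrM:2676-2750, plus strand) is the leucine tRNA between mt-Rnr2 and mt-Nd1. In the run, mt-Tw (tryptophan, chrM:4950-5016) is on the plus strand. The other members of the run, mt-Ta (alanine, chrM:5018-5086), mt-Tn (asparagine, chrM:5089-5159), mt-Tc (cysteine, chrM:5192-5257) and mt-Ty (tyrosine, chrM:5260-5326), are on the minus strand. mt-Tt (threonine, chrM:15289-15355) is on the plus strand beside mt-Cytb. The gene sequences are given 5′ to 3′ on each gene's own strand, with T for U and without the terminal CCA, which is added after transcription. Capitals mark the anticodon.
mt-Tl1: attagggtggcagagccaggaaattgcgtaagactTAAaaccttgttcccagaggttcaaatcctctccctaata
mt-Tw: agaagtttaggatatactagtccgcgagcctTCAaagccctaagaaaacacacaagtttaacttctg
mt-Ta: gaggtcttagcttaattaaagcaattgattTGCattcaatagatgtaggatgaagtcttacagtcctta
mt-Tn: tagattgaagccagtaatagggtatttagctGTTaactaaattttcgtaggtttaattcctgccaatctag
mt-Tc: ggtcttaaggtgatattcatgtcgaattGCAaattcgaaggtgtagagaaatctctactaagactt
mt-Ty: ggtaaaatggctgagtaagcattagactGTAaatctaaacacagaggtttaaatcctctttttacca
mt-Tt: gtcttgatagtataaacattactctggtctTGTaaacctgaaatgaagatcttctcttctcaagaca

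The libraries held 17.161 to 30.943 M recovered fragments. The totals by which FPKM was scaled were 18.002 to 23.546 M. In brivanib 5, with 30.943 M recovered, the scaling total was 21.021 M. The recovered number exceeded the scaling total there, and slightly in brivanib 2 and cisplatin 3. A fragment may therefore have been counted on more than 1 feature, which was not tested. Brivanib 5 stood apart: nuclear ribosomal RNA features held 37.901% of its recovered number. For the remaining 11 libraries this share was between 0.271% and 0.658%. Where counts are repeated, these values are not shares of distinct fragments. The mean log2(FPKM + 1) of 16 skeletal muscle markers was at most 0.163 in 7 libraries. It was 3.785 for brivanib 3, 3.595 for brivanib 5, 1.852 for combination 2, 1.138 for cisplatin 1 and 1.001 for cisplatin 3. The label LLC was checked against 6 epithelial and lung markers. Their mean was 0.313 to 0.524 on the same scale. Krt18, Nkx2-1 and Sftpc were listed at 0 in all 12 libraries and Krt8 reached at most 0.2222 FPKM, so these markers do not show a lung epithelial character, while Cdh1 reached 3.231 FPKM and Epcam 1.648 FPKM.

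The mRNAs took most of the sequenced mitochondrial fragments. They made up 97.53% to 98.79% of the mitochondrial fragments in 11 libraries and 80.9% in brivanib 5. The rRNAs made up 0.9531% to 2.167% in 11 libraries and 18.99% in brivanib 5, the library with the large share of nuclear ribosomal RNA. How library preparation shaped these shares was not tested, so they do not give the make-up of mitochondrial RNA in the cells. The mt-Co1 transcript, for the catalytic subunit of complex IV (cytochrome c oxidase), had the highest FPKM of the 13 mRNAs in each of the 12 libraries. mt-Atp8, for a small ATP synthase subunit, came next in each, and mt-Nd3, for a complex I (NADH dehydrogenase) subunit, was lowest in each. By mean FPKM the order was mt-Co1, mt-Atp8, mt-Co2, mt-Co3, mt-Cytb, mt-Nd1, mt-Nd4, mt-Nd4l, mt-Nd2, mt-Nd5, mt-Atp6, mt-Nd6 and mt-Nd3. The mean of the highest was 30.9 times that of the lowest. These levels leave out fragments on nuclear copies, described below, which were many for mt-Co2, mt-Co3, mt-Atp6, mt-Nd3, mt-Nd4 and mt-Nd4l. In vehicle 2, mt-Atp6 had 9263 fragments, and 64196 together with its copy Gm10925. Such a sum may count a fragment that matches both more than once. The order and the range could differ with the copies counted. Between the ends the neighbours changed places: mt-Co3 ranked between 3 and 5, mt-Nd2 and mt-Nd5 each between 9 and 11, and mt-Atp6 between 4 and 12.

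**Figure D1:**
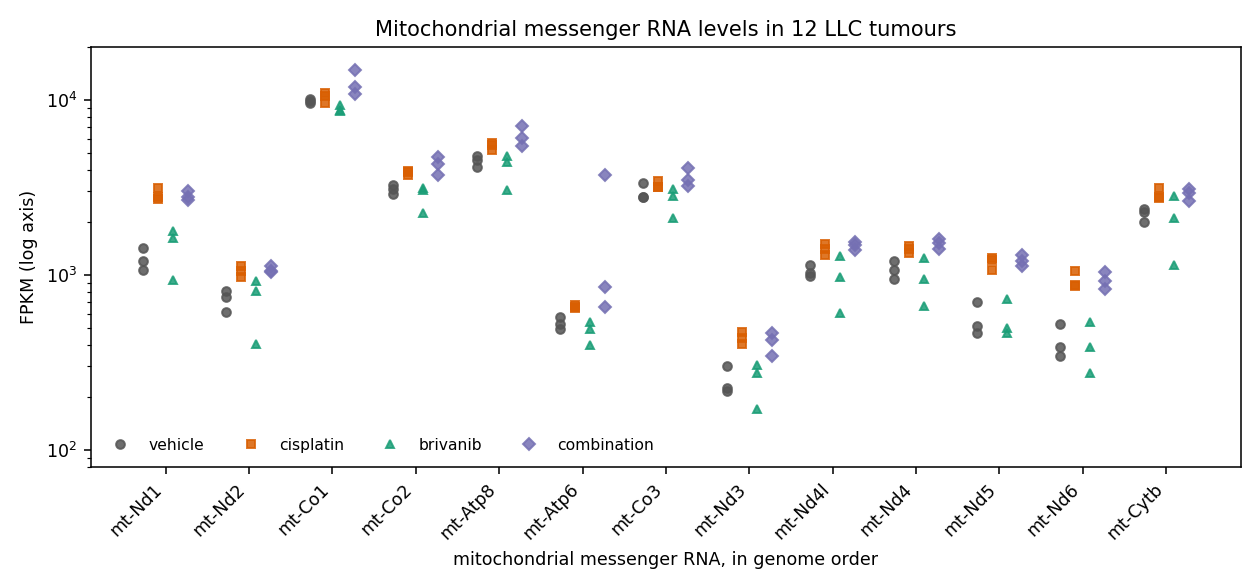
FPKM (log axis) of the 13 mitochondrial mRNAs in genome order, 1 point per library, with colour and shape for the group. The cisplatin and combination libraries lie above the vehicle and brivanib libraries for mt-Nd1, mt-Nd5 and mt-Nd6 without overlap, while for mt-Co1 the groups lie close together, from 8651 to 14780 FPKM; mt-Atp6 in combination 2 (3739 FPKM) stands apart.

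For 6 mRNAs the level may depend on how fragments were assigned to nuclear copies, stretches of mitochondrial sequence inserted in nuclear chromosomes. On chromosome 1, Gm10925 matched mt-Atp6 over 678 bases with no mismatch, Gm28661 matched mt-Co2 over 681, Gm28437 matched mt-Co3 over 783, Gm10222 matched mt-Nd4l over 294, and Gm28439 matched mt-Nd4 over 876 of 1378. Gm28438 matched mt-Nd3 over 345 bases with 1 substitution, T3C, counted from the first base of mt-Nd3. The start of mt-Nd3 (chrM:9459-9483, plus strand) and that of Gm28438 (chr1:24613095-24613119, minus strand) are shown with that base in capitals, because it is the 1 difference between the genes over those bases.
mt-Nd3 window: atTaacctgtacactgttatcttca
Gm28438 window: atCaacctgtacactgttatcttca

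Fragments were assigned to 4 of these 6 copies at nearly the level of the members themselves, to Gm28439 at a lower level and to Gm10925 at a higher one. The fragments on Gm28661 came to between 99.2% and 99.8% of those on mt-Co2 across the 12 libraries. The share was 99.6% to 99.9% for Gm28437 with mt-Co3, 99.1% to 100.6% for Gm10222 with mt-Nd4l, 101.1% to 114.8% for Gm28438 with mt-Nd3, and 42.9% to 44.7% for Gm28439 with mt-Nd4. Gm10925 carried 585.7% to 636.6% of the fragments of mt-Atp6 in 11 libraries and 121.5% in combination 2. For mt-Co1, Gm29216 (483 matching bases at 99.79% identity) carried 7.9% to 9.3%. The sources used here do not state how fragments that match a member and its copy equally were assigned, and the levels of these members are uncertain to that extent. In vehicle 2, mt-Co3 had 62246 fragments and Gm28437 62024. Such fragments may have been split or counted in full on both, which was not tested. Sums of a member and its copy may therefore count fragments more than once. For the members on which the treatment results turn, the best copies held almost no fragments: at most 7 fragments on Gm4076 (mt-Nd5) and at most 3 on Gm11408 (mt-Nd6), against at least 16238 and 3004 on the members. Among annotated transcripts no copy of at least 90% identity was found for mt-Nd1, the rRNAs or the tRNAs.

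mt-Atp6, for the proton channel subunit of ATP synthase, was out of step in 1 library. It was at 577.7, 526.6 and 491.4 FPKM in vehicle, 653.8, 650.7 and 669.6 FPKM in cisplatin, 399.3, 540.9 and 488.9 FPKM in brivanib, and 3739, 855.7 and 652.9 FPKM in the combination. Combination 2 was 4.37 times the highest other library. It was also the library in which Gm10925 carried fewer fragments relative to mt-Atp6. The sum of both did not return to the usual level: divided by the sum of mt-Co3 and Gm28437 it was 1.03 in combination 2 and 0.517 to 0.655 elsewhere. Both sums may count fragments more than once. The cause was not tested. For the combination against vehicle the log2 fold change of mt-Atp6 was 1.27 ± 0.47 (SE; limma adjusted p = 0.173) with this library and 0.49 ± 0.16 (adjusted p = 0.205) without it.

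**Figure D2:**
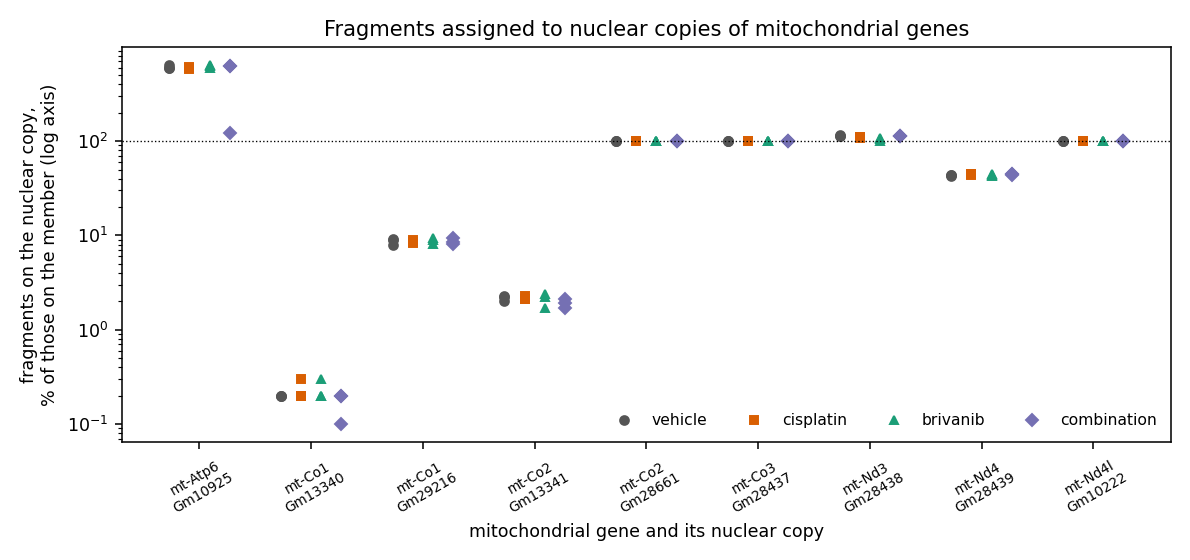
Fragments on each nuclear copy as a percentage of those on the mitochondrial gene (log axis; the dotted line is 100%), 1 point per library, coloured by group. The points of a pair lie close together in all groups, apart from mt-Atp6 and Gm10925, where combination 2 is at 121.5% and the other libraries at 585.7% to 636.6%.

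Cisplatin alone raised 2 members, the leucine tRNA mt-Tl1 and mt-Nd5 (ENSMUSG00000064367, chrM:11742-13565), for a proton-pumping core subunit of complex I, and lowered none. Both passed limma at a Benjamini-Hochberg adjusted p under 0.05 over 14246 genes; over all genes 0.119% passed in that direction and 0.0702% in the other. mt-Tl1 was at 80.41, 104.5 and 63.88 FPKM in vehicle and at 416.2, 207.9 and 389.7 FPKM in cisplatin. Each cisplatin library lay above each vehicle library, with cisplatin 2 the lowest of its group. Its group mean was 4.08 times that of vehicle, with a log2 fold change of 1.98 ± 0.26 on the log2(FPKM + 1) scale (adjusted p = 0.0225). mt-Nd5 was at 698.4, 507.3 and 463.6 FPKM in vehicle and at 1256, 1062 and 1211 FPKM in cisplatin, again without overlap. The ratio of its means was 2.11 and the log2 fold change 1.10 ± 0.19 (adjusted p = 0.049).

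Several other members missed the threshold narrowly. mt-Nd1 (ENSMUSG00000064341, chrM:2751-3707), for the complex I subunit next to the quinone-binding site, averaged 1225 ± 181 FPKM in vehicle and 2878 ± 214 FPKM in cisplatin (SD, n = 3), with a log2 fold change of 1.24 ± 0.22 (limma adjusted p = 0.0517). mt-Tw had a log2 fold change of 1.86 ± 0.33 (adjusted p = 0.0517), mt-Nd6 1.18 ± 0.22 (adjusted p = 0.0631) and mt-Tc 1.22 ± 0.26 (adjusted p = 0.0831). At an unadjusted p under 0.05 there were 16 of 37 members, against 14.3% of all genes. In 25 of the 37 the 3 cisplatin libraries lay above the 3 vehicle libraries without overlap, where 17.0% of all genes did so; in none did they lie below, where 6.72% of all genes did. The log2 fold change was above 0 for 36 of the 37 (32 or 33 under 5 other scalings, where values near 0 such as those of mt-Ti and mt-Td turned negative), with a median of 0.58 against 0.07 over all genes. The exception was mt-Tr, the arginine tRNA, at -0.32 ± 0.33.

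The count of 2 rested on single libraries. It was 0 when vehicle 2, vehicle 3, vehicle 5, cisplatin 1 or cisplatin 3 was left out, 1 without combination 2, combination 3 or combination 4, 4 without brivanib 3 and 6 without brivanib 2. limma with voom weights on the recovered fragments gave 0. Calls over all genes were lost with them: of 14246 genes none rose without vehicle 2, vehicle 3, vehicle 5, cisplatin 1 or cisplatin 3, or with voom, against 17 with all libraries. Without brivanib 3, 32 of all genes rose, and without brivanib 2, 74. mt-Nd5 lost its call in 21 of 26 alternatives and mt-Tl1 in 9 of 26. No sign of either turned.

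The combination against vehicle raised 7 members and lowered none, where 1.82% of all genes rose and 0.519% fell. They were 3 complex I mRNAs (mt-Nd1, mt-Nd5 and mt-Nd6) and 4 tRNAs (mt-Tl1, mt-Tw, mt-Tc and mt-Tt). This comparison shares its vehicle libraries with the one above. mt-Nd1 was at 1421, 1194 and 1062 FPKM in vehicle and at 3006, 2671 and 2792 FPKM in the combination. Its lowest combination library lay above its highest vehicle library, and the log2 fold change was 1.21 ± 0.22 (limma adjusted p = 0.0218). mt-Nd6 (ENSMUSG00000064368, chrM:13552-14070), the minus-strand mRNA for a complex I membrane subunit, was at 522.2, 385.9 and 344 FPKM in vehicle and at 925.1, 1043 and 828.2 FPKM in the combination. Its groups did not overlap either, and the log2 fold change was 1.17 ± 0.22 (adjusted p = 0.0235). For mt-Nd5 it was 1.14 ± 0.19 (adjusted p = 0.0177). As the strand of fragments is not known, the mt-Nd6 level may include plus-strand RNA over the same bases. Its rise is therefore not shown to be that of a separate minus-strand transcript.

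Among the tRNAs, mt-Tl1 was at 293.6, 263.9 and 355.5 FPKM in the combination, 3.67 times the vehicle mean, with a log2 fold change of 1.88 ± 0.26 (limma adjusted p = 0.0102). The other 3 had lower levels. mt-Tw averaged 3.814 ± 2.08 FPKM in vehicle and 11.63 ± 0.692 FPKM in the combination (log2 fold change 1.47 ± 0.33, adjusted p = 0.0397), and rested on 2 to 31 fragments per library. mt-Tc averaged 30.59 ± 5.86 and 67.72 ± 3.29 FPKM (1.14 ± 0.26, adjusted p = 0.045). mt-Tt averaged 2.295 ± 0.261 and 7.15 ± 0.308 FPKM (1.31 ± 0.25, adjusted p = 0.024) on 1 to 11 fragments per library. In 29 of the 37 members the combination libraries all lay above the vehicle libraries, where 17.2% of all genes did so, and the median log2 fold change was 0.73 against 0.04. The count of 7 fell to 1 without vehicle 3, combination 2 or combination 3, to 2 without vehicle 2 or vehicle 5 and to 4 without combination 4. Over all genes 259 rose, and 14 to 72 without vehicle 2, vehicle 3, vehicle 5, combination 2 or combination 3, but 258 without combination 4.

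Against brivanib alone, the combination raised 12 members and lowered none, where 2.02% of all genes rose and 1.85% fell. They were the 3 complex I mRNAs mt-Nd1, mt-Nd5 and mt-Nd6 and 9 tRNAs, among them all 5 of the run from mt-Tw to mt-Ty. The genes of the run are neighbours, each shorter than a usual fragment, and mitochondrial RNAs are cut from long precursors. The 12 calls are therefore not 12 separate observations, and the same holds for the counts of members in the other comparisons. mt-Nd5 was at 494, 725.5 and 464.8 FPKM in brivanib and at 1206, 1293 and 1121 FPKM in the combination (log2 fold change 1.13 ± 0.19, limma adjusted p = 0.0122). mt-Nd6 was at 386.2, 537 and 275.4 FPKM in brivanib (1.27 ± 0.22, adjusted p = 0.0141), and mt-Nd1 at 940.3, 1776 and 1618 FPKM (1.02 ± 0.22, adjusted p = 0.0271). For these mRNAs no brivanib library reached the lowest combination library.

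In the tRNA run, mt-Tw averaged 2.062 ± 0.673 FPKM in brivanib, and its log2 fold change to the combination was 2.07 ± 0.33 (limma adjusted p = 0.0105). mt-Ta was at 17.44, 22.69 and 4.826 FPKM in brivanib and at 56.51, 66.21 and 61.18 FPKM in the combination (2.19 ± 0.44, adjusted p = 0.0235). The lowest of these is brivanib 5, the library with the large share of ribosomal RNA. mt-Tn (1.92 ± 0.35, adjusted p = 0.0164), mt-Tc (1.61 ± 0.26, adjusted p = 0.0113) and mt-Ty (1.33 ± 0.27, adjusted p = 0.0218) rose too. Outside the run the 4 were mt-Tl1 (1.68 ± 0.26, adjusted p = 0.0103), mt-Tt (1.60 ± 0.25, adjusted p = 0.0105), the second leucine tRNA mt-Tl2 (1.70 ± 0.40, adjusted p = 0.0391) and the aspartate tRNA mt-Td (0.62 ± 0.15, adjusted p = 0.0449). mt-Td had only 4 to 9 fragments per library and lost its call in 20 of 25 alternatives. mt-Tl2 was at 19.55, 29.61 and 6.7 FPKM in brivanib, again lowest in brivanib 5, and lost its call in 14 of 26.

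In 26 members the combination libraries all lay above the brivanib libraries, where 14.1% of all genes did so. The median log2 fold change was 0.71 against 0.04, and 1.73 over the 8 minus-strand tRNAs against 0.79 over the 14 plus-strand ones. The lowest mean of a minus-strand tRNA was 10.91 FPKM (mt-Tq), while plus-strand tRNAs went down to 1.624 FPKM (mt-Tv). The log2(FPKM + 1) scale understates changes of low genes, so strand and level cannot be told apart here. Without brivanib 5 the count was 13, without brivanib 3 it was 20, without combination 2 it was 6 and without combination 3 it was 1; over all genes 288 rose, and 82, 370, 75 and 20 in these settings. With brivanib 5 and combination 2 both left out, a choice made after the data were seen, the count was 1 against brivanib, 1 for the combination against vehicle and 0 for cisplatin against vehicle, where 11, 13 and 1 of all genes rose.

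**Figure D3:**
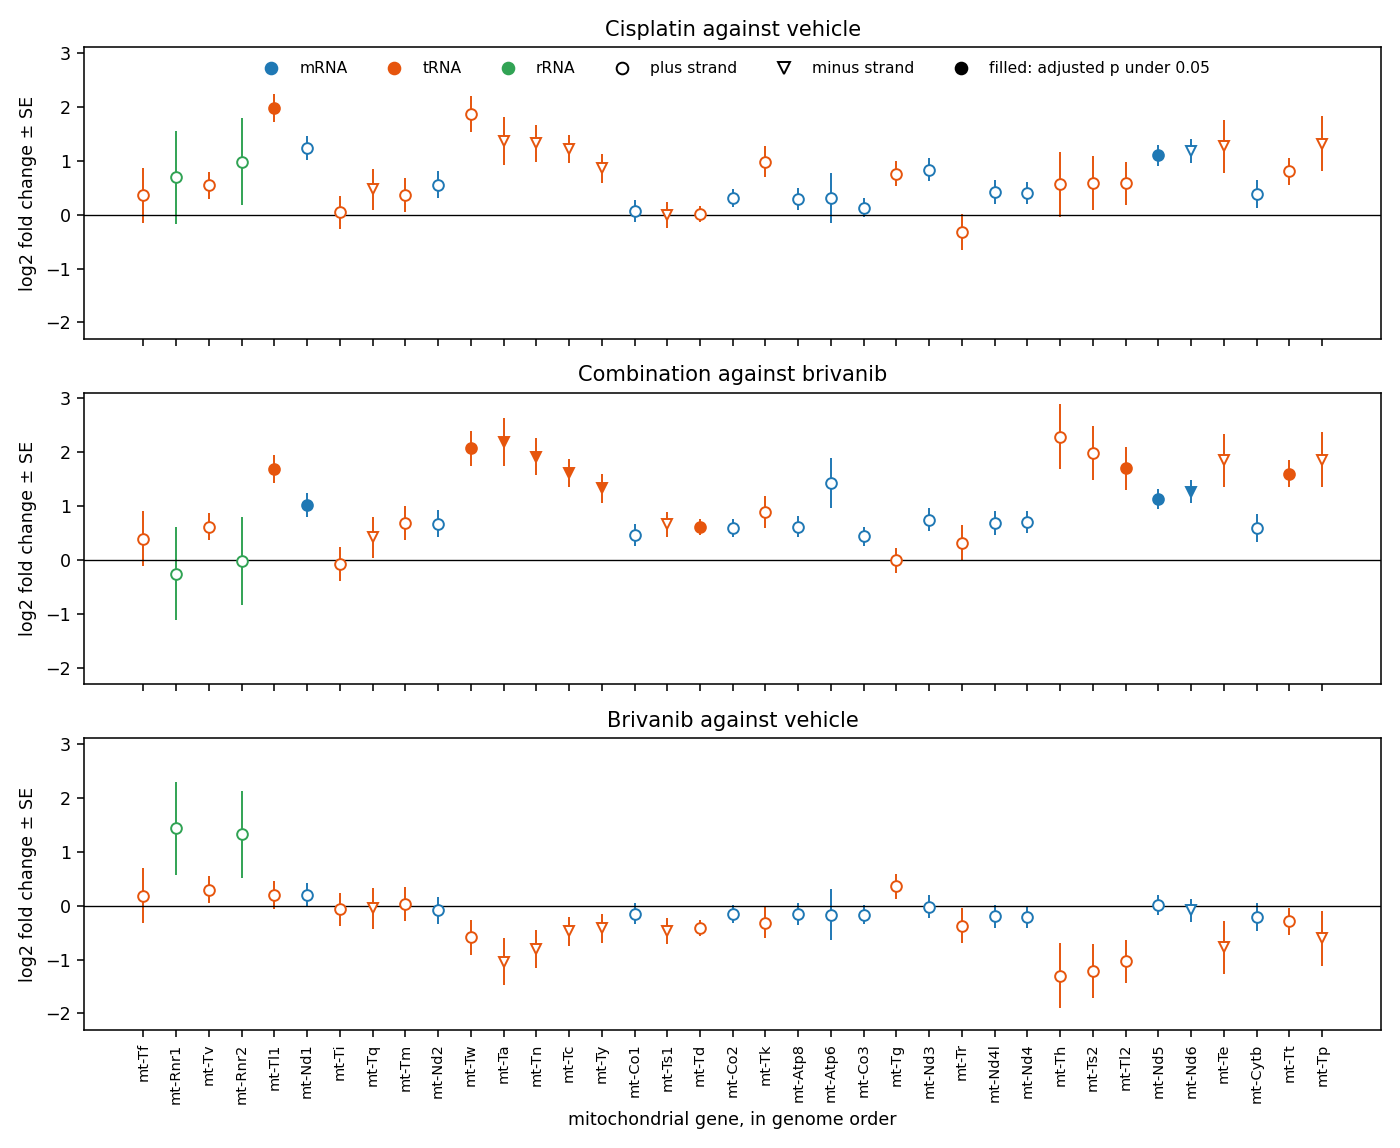
Log2 fold change ± SE on the log2(FPKM + 1) scale for the 37 members in genome order, in 3 comparisons, with colour for the class, circles for the plus and triangles for the minus strand, and filled symbols where the limma adjusted p was under 0.05. In cisplatin against vehicle 2 symbols are filled, in combination against brivanib 12 and in brivanib against vehicle 0; the rRNAs carry the widest errors.

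Brivanib alone called no member in either direction. voom also called none, while 1.71% of all genes rose and 0.105% fell by limma. At an unadjusted p under 0.05 limma gave 5 of 37 members, near the share of all genes, 11.7%. The smallest adjusted p was 0.3, for mt-Td. The median log2 fold change was -0.17, and -0.15 over the mRNAs. In mt-Co1 alone the groups did not overlap, with brivanib at 8777, 9321 and 8651 FPKM below vehicle at 10120, 9629 and 9825 FPKM, where 6.9% of all genes lay below and 8.95% above. Brivanib 2 was the lowest of the 12 libraries for 10 of 13 mRNAs and brivanib 5 for 13 of 22 tRNAs. The mean of the skeletal muscle markers was 3.785 in brivanib 3 and 3.595 in brivanib 5, but 0.11 in brivanib 2 and 0.117 to 0.163 in vehicle. With that mean as a covariate the count of members called was again 0, where 60 of all genes rose and 5 fell. The median log2 fold change of the members was then -0.40.

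Adding brivanib to cisplatin also called no member. In the combination against cisplatin alone no member had an unadjusted p under 0.05, where 6.74% of all genes did, and voom called none. No gene of the 14246 passed, so that 0.0% were called. The groups did not overlap for mt-Rnr1, mt-Td and mt-Tt, all higher in the combination, where 4.94% of all genes were. For mt-Tl1 the levels were 416.2, 207.9 and 389.7 FPKM with cisplatin and 293.6, 263.9 and 355.5 FPKM with both drugs. For mt-Nd1 they were 2784, 2726 and 3123 FPKM and 3006, 2671 and 2792 FPKM. The ranges overlapped for both genes. The interaction, which compares the brivanib effect under cisplatin with that under vehicle, called no member (voom 0; 0.14% of all genes called in either direction). At an unadjusted p under 0.05 it gave 3 of 37 members and 10.0% of all genes.

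**Figure D4:**
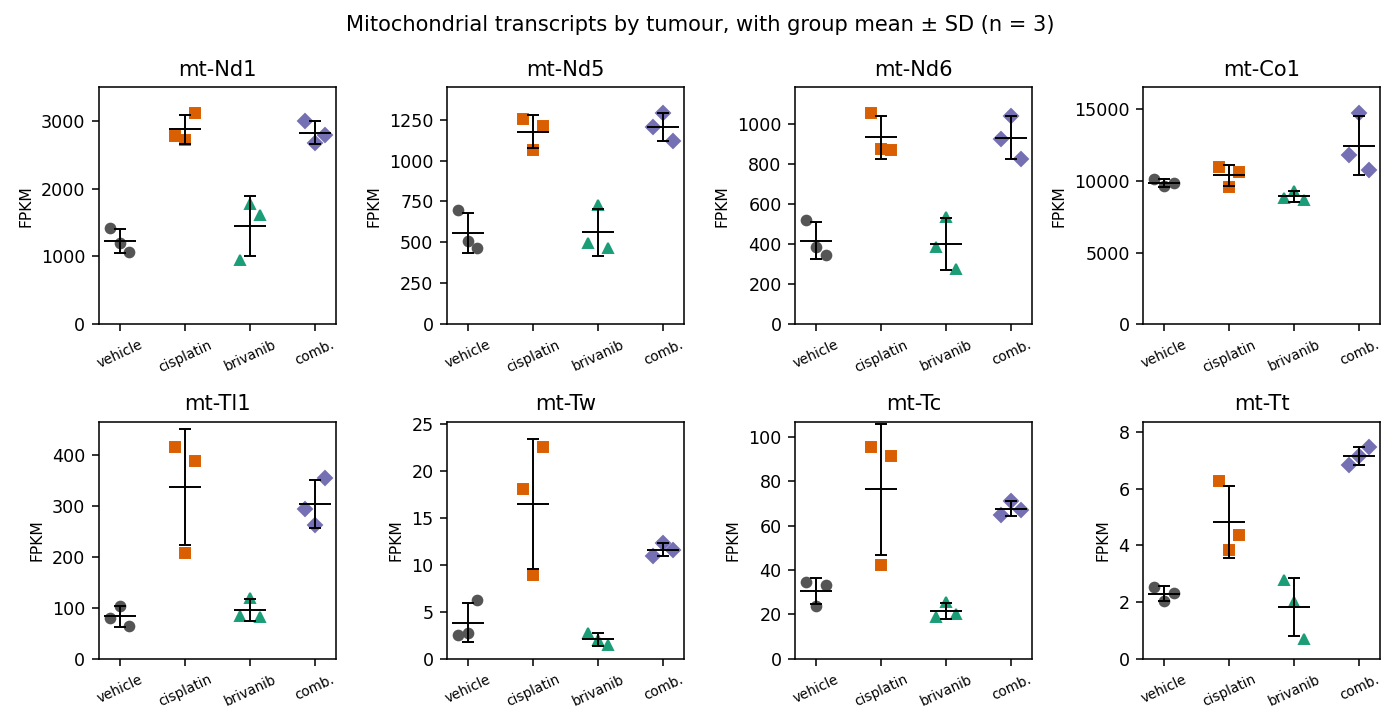
FPKM of 8 members by group, 1 point per library with the group mean ± SD (n = 3); comb. is the combination. For mt-Nd1, mt-Nd5, mt-Nd6, mt-Tl1, mt-Tw, mt-Tc and mt-Tt each library with cisplatin lies above each library without it, whereas for mt-Co1 the lowest library with cisplatin (9602 FPKM) lies below the highest without it (10120 FPKM).

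After these values had been seen, the 6 libraries with cisplatin (alone or in the combination) were compared with the 6 without it, in the same fit. By this contrast 17 members rose and none fell, where 4.96% of all genes rose and 1.55% fell. The contrast reuses the libraries above and is a description of them, not further evidence. Of the 7 complex I mRNAs 5 passed: mt-Nd6 (1.22 ± 0.16, limma adjusted p = 0.00316), mt-Nd1 (1.13 ± 0.15, adjusted p = 0.004), mt-Nd5 (1.11 ± 0.13, adjusted p = 0.00265), mt-Nd3 (0.79 ± 0.15, adjusted p = 0.0131) and mt-Nd4 (0.55 ± 0.14, adjusted p = 0.0381). The others were mt-Nd2 (0.61 ± 0.18, adjusted p = 0.0595) and mt-Nd4l (0.56 ± 0.15, adjusted p = 0.0542). Of the 3 complex IV mRNAs mt-Co2 passed (0.46 ± 0.12, adjusted p = 0.0437), and mt-Co1 (0.27 ± 0.14, adjusted p = 0.256) and mt-Co3 (0.28 ± 0.13, adjusted p = 0.196) did not. mt-Cytb, for the mitochondrially encoded subunit of complex III, was at 0.49 ± 0.19 (adjusted p = 0.132) and mt-Atp8 at 0.45 ± 0.14 (adjusted p = 0.08). mt-Atp6 was at 0.87 ± 0.33 (adjusted p = 0.134), and at 0.48 ± 0.11 (adjusted p = 0.0427) without combination 2.

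Of the 22 tRNAs 11 passed in the contrast of cisplatin with none, 6 of the 8 on the minus strand and 5 of the 14 on the plus strand. The lowest tRNAs by mean FPKM were on the plus strand, so strand and level cannot be told apart. The log2 fold change was largest for mt-Tw, at 1.96 ± 0.23 (limma adjusted p = 0.00249), followed by mt-Tl1, at 1.83 ± 0.19 (adjusted p = 0.00103). mt-Ta, mt-Tn, mt-Tp, mt-Te, mt-Tc, mt-Tt, mt-Tl2, mt-Ty and mt-Tk were the others. mt-Ti, the isoleucine tRNA, was at -0.01 ± 0.22 (adjusted p = 0.975). In 19 of the 37 members, 10 mRNAs and 9 tRNAs, each library with cisplatin lay above each without, where 3.45% of all genes did so. mt-Tl1, mt-Tw and mt-Nd6 passed in each of 25 alternatives. mt-Co2 lost its call in 17 of the 25 and mt-Nd4 in 18. Among the tRNAs mt-Tl2 lost it in 12, mt-Tp and mt-Tk each in 10 and mt-Te in 8. The count was 11 without vehicle 3, cisplatin 3 or combination 3, where 315 to 408 of all genes rose, against 707 with all libraries. The matching contrast for brivanib, 6 libraries against 6, called none (voom 0; 0.498% of all genes rose and 0.0211% fell). No member had an unadjusted p under 0.05, against 9.93% of all genes.

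The share of complex I in the mRNA pool was higher in the cisplatin libraries than in the vehicle libraries. It is given as a description, without a test, and leaves out fragments on nuclear copies. Complex I mRNAs made up 20.05%, 18.64% and 16.89% of the mRNA FPKM in vehicle and 25.72%, 25.78% and 26.3% in cisplatin. In brivanib the share was 17.08%, 22.34% and 19.89%, and in the combination 23.04%, 21.78% and 25.25%. The ranges of cisplatin and vehicle did not overlap, while combination 3 lay just under brivanib 3. By gene the change was uneven. From vehicle to cisplatin the mean share went from 4.292% to 8.039% for mt-Nd1, 1.943% to 3.284% for mt-Nd5 and 1.457% to 2.614% for mt-Nd6. The other complex I mRNAs changed less: mt-Nd2 from 2.526% to 2.928%, mt-Nd3 from 0.869% to 1.223%, mt-Nd4 from 3.757% to 3.927% and mt-Nd4l from 3.679% to 3.917%. Complex I mRNAs summed to 5287 ± 738 FPKM in vehicle and 9283 ± 537 FPKM in cisplatin, and complex IV mRNAs to 15930 ± 711 and 17490 ± 875 FPKM (SD, n = 3). The FPKM ratio of mt-Nd5 to mt-Co1 was 0.04719 to 0.07784 in the 6 libraries without cisplatin and 0.08743 to 0.1144 in those with it. As a ratio within a library it does not depend on the scaling of that library. The ratio of mt-Nd5 to its opposite-strand neighbour mt-Nd6 was 1.185 to 1.688 and overlapped between those sets. The part of plus-strand RNA in the mt-Nd6 level was not tested. In bulk tumours a change in the number of cells of a type and a change in their RNA per cell cannot be told apart.

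The 22 tRNAs spanned a 380-fold range of mean FPKM. Their genes were 59 to 75 bases long, which is less than a usual fragment, and FPKM is therefore an uncertain measure of their level. The highest were the serine tRNA mt-Ts1 (616.4 FPKM), mt-Tl1 (205.1 FPKM) and the glutamate tRNA mt-Te (101.2 FPKM). The lowest were mt-Tt (4.023 FPKM), the phenylalanine tRNA mt-Tf (2.061 FPKM) and the valine tRNA mt-Tv (1.624 FPKM). In 14 of the 22 some library had fewer than 10 fragments, and only 2 had at least 30 in every library. mt-Tf had 0 fragments in brivanib 3, where 3 fragments, the number that a count of 0 allows for counting error alone, would be 1.97 FPKM. mt-Ts1 lies on the minus strand and overlaps the end of mt-Co1 by 3 bases. Its FPKM was 0.05623 to 0.06766 of that of mt-Co1 in 11 libraries and 0.03307 in brivanib 5. For cisplatin against vehicle the log2 fold change was 0.00 ± 0.24 for mt-Ts1 and 0.07 ± 0.20 for mt-Co1. As the strand of fragments is not known, the mt-Ts1 level may include plus-strand RNA, and its rank is uncertain. The part of plus-strand RNA in it was not tested. Summed without mt-Ts1, the tRNAs came to 507.3 ± 65.8 FPKM in vehicle, 1202 ± 334 in cisplatin, 387.7 ± 172 in brivanib and 1134 ± 16 in the combination.

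The rRNAs, mt-Rnr1 of the small and mt-Rnr2 of the large mitochondrial ribosomal subunit, passed in no comparison with all 12 libraries. mt-Rnr1 was at 239.1, 145.9 and 174.3 FPKM in vehicle, 289.2, 302.6 and 291.7 in cisplatin, 216, 154.3 and 3613 in brivanib, and 448.9, 502.4 and 318.8 in the combination. mt-Rnr2 was at 133.2, 90.06 and 95.1 FPKM in vehicle, 217.8, 188.4 and 218.4 in cisplatin, 114.8, 90 and 1739 in brivanib, and 298.3, 282.2 and 208.1 in the combination. Brivanib 5 was 7.19 and 5.83 times the highest other library for the respective genes. Apart from that library, each cisplatin and combination value lay above each vehicle and brivanib value for both genes. With all 12 libraries kept neither rRNA did so, where 3.45% of all genes did.

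The rRNA result turned on brivanib 5. That library was singled out here by its values for these same genes. The results without it are therefore a description and not further evidence. Its values also entered the pooled spread of comparisons that do not use brivanib. With brivanib 5, the combination against vehicle gave log2 fold changes of 1.18 ± 0.86 (limma adjusted p = 0.499) for mt-Rnr1 and 1.30 ± 0.81 (adjusted p = 0.425) for mt-Rnr2. Without it, the same differences had errors of 0.21 and 0.18, and both rRNAs rose (adjusted p = 0.0276 and 0.0116). Cisplatin against vehicle gave 0.69 ± 0.21 (adjusted p = 0.182) and 0.98 ± 0.18 (adjusted p = 0.069) without it, which did not pass. Against brivanib the combination gave -0.25 ± 0.86 and -0.02 ± 0.81 with brivanib 5, and 1.18 ± 0.23 (adjusted p = 0.041) and 1.34 ± 0.20 (adjusted p = 0.0155) without it. Cisplatin against none gave 0.22 ± 0.61 and 0.48 ± 0.57 with it, and 0.94 ± 0.16 (adjusted p = 0.0157) and 1.16 ± 0.13 (adjusted p = 0.00302) without it. With brivanib 5 and combination 2 both left out, the rRNAs did not pass for the combination against vehicle (adjusted p = 0.0994 for mt-Rnr1 and 0.0564 for mt-Rnr2) or against brivanib (0.106 and 0.0524), and passed for cisplatin against none (0.0416 and 0.0105).

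**Figure D5:**
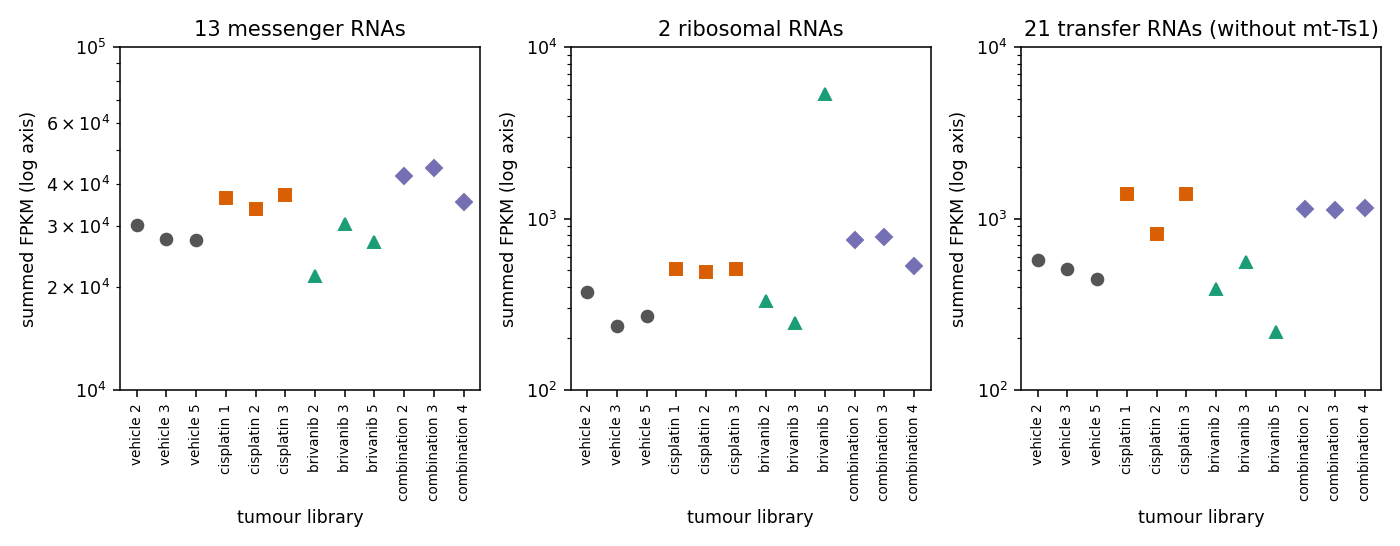
Summed FPKM (log axis) of the mRNAs, the rRNAs and the tRNAs without mt-Ts1 in each of the 12 libraries, coloured by group. Brivanib 5 is the highest library for the rRNAs (5353 FPKM) and the lowest for the tRNAs (216.4 FPKM); the mRNA sum is 33790 to 44340 FPKM with cisplatin and 21430 to 30510 FPKM without it.

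Few nuclear genes that maintain, transcribe, process or translate the mitochondrial genome passed the test. In 5 lists, 20 of 20 replication and nucleoid genes, 16 of 17 transcription genes, 37 of 37 RNA processing and decay genes, 22 of 22 aminoacyl-tRNA synthetases and 78 of 78 mitochondrial ribosomal proteins could be tested. None of these genes passed in the 5 pairwise comparisons or the interaction. The smallest limma adjusted p there was 0.0538, in the processing list for the combination against brivanib. In the contrast of cisplatin with none, medians were 0.03, 0.02, 0.08, 0.02 and 0.05 in the order named, against 0.05 over all genes. Of the 173 genes tested 4 rose (2.31%) and 1 fell (0.578%), against 4.96% and 1.55% of all genes. They were Lonp1, a matrix protease that also binds mitochondrial DNA (0.25 ± 0.07, adjusted p = 0.0499), and the ribosomal proteins Mrps16 (0.46 ± 0.11, adjusted p = 0.0334), Mrps2 (0.27 ± 0.07, adjusted p = 0.0456), Mrps10 (0.26 ± 0.06, adjusted p = 0.0335) and, lower, Mrpl24 (-0.32 ± 0.08, adjusted p = 0.0297).

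Named regulators did not pass in that contrast. Tfam, which packages mitochondrial DNA and starts its transcription, was at 10.35 to 15.34 FPKM over the 12 libraries, with a log2 fold change of 0.11 ± 0.09 (limma adjusted p = 0.463). The mitochondrial RNA polymerase Polrmt was at 7.907 to 11.89 FPKM (-0.07 ± 0.10, adjusted p = 0.682), and the elongation factor Tefm at 0.21 ± 0.07 (adjusted p = 0.11). Lrpprc, which stabilises mitochondrial mRNAs with Slirp, was at 0.04 ± 0.07 (adjusted p = 0.801), and Slirp at -0.39 ± 0.21 (adjusted p = 0.289). Elac2, which cuts tRNAs at their 3′ end, was at 0.25 ± 0.12 (adjusted p = 0.239), and the DNA polymerase Polg at -0.03 ± 0.08 (adjusted p = 0.858). Ppargc1a, a coactivator of mitochondrial biogenesis, reached at most 0.2284 FPKM and was not tested.

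Markers of other cells also differed between libraries. Of the means given here, only the erythroid one separated all libraries with cisplatin from all without it. The mean log2(FPKM + 1) of 5 erythroid genes, globins and Alas2, was 7.519 to 8.411 in vehicle and 5.719 to 8.267 in brivanib, against 0.537 to 3.91 in cisplatin and 0.539 to 1.239 in the combination. All 5 were lower in cisplatin than in vehicle by limma. The 4 proliferation genes were at 5.851 to 6.124 with cisplatin and 5.496 to 5.963 without it, overlapping through brivanib. The 12 adipocyte genes were at 2.465 to 2.732 in the combination, 1.08 to 1.101 in vehicle, 1.041 to 2.254 in cisplatin and 1.41 to 3.553 in brivanib. With the adipocyte mean as a covariate, 14 members rose for cisplatin against none, as did 360 of all genes. For the combination against vehicle 0 members rose with it and 1 of the 14246 genes, and the median of the members went from 0.73 to 0.31. With the muscle mean the member counts were 21 and 7. Over all genes 962 and 282 rose with it, against 707 and 259 without a covariate. The mean of 4 brown adipocyte genes was 2.094 in brivanib 3 and at most 0.495 elsewhere, and Ucp1 (6.398 FPKM) and Cidea (7.071 FPKM) were listed at 0 in the other 11 libraries. The mean of 5 macrophage genes was 4.445 to 4.657 in brivanib, 2.808 to 3.278 in vehicle, 2.845 to 4.039 in cisplatin and 2.814 to 4.104 in the combination. Cd163 and Cd68 were higher in brivanib than in vehicle by limma (2.87 ± 0.44, adjusted p = 0.00652, and 1.30 ± 0.27, adjusted p = 0.032). The part of the erythroid, proliferation, brown adipocyte and macrophage genes in the mitochondrial values was not tested. Of the 4 cardiac muscle markers, Tnni3 reached at most 0.6522 FPKM, Nppa 0.3018 FPKM, Myh6 0.01501 FPKM and Myl7 0 FPKM.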

How the data were processed

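RNA of 12 tumours was sequenced, and the authors deposited FPKM per transcript, estimated with RSEM after alignment with Bowtie2 to mm10, per the labels' design text. The submitters' processing notes list HISAT, Bowtie2 2.2.5, Bowtie, RSEM 1.2.12 and mm9; the coordinates of 37 of 37 members equal those of GENCODE release 21 for mouse on GRCm38. The deposited transcript lengths, another unit (bases), served to recover fragments. Of 13 per-sample columns 1 matched no label and was not used. FPKM was summed to genes. FPKM times length went in steps of 1 size, and 100% of values up to 100 fragments were whole within 0.01. The sample labels gave the groups. limma 3.58.1 in R 4.3.3 fitted log2(FPKM + 1) with a mean per group over all 12 libraries (8 residual degrees of freedom, trend, two-sided, Benjamini-Hochberg over 14246 genes with mean FPKM of at least 1). Fold changes on this scale understate changes of low genes. The procedure was tested on simulated data. Nuclear copies were found with BLAST 2.17.0 (at least 90% identity). Alternatives covered pseudocount, filters, scaling, voom, covariates, a replicate block and leaving out libraries. All 37 members could be named, with statistics for those past the threshold; nuclear genes were named when past it (at most 4 per list and contrast) or in a panel of 8. The members and lists were chosen with earlier results of these data known. Counts of fragments carry counting error only; PCR copies were not marked. Sequences came from GENCODE transcripts.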

Additional observations from a re-analysis of the deposited data

How the results depend on the processing

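No member called in a comparison changed sign in any alternative run. Calls for brivanib against vehicle, the combination against cisplatin, the interaction and brivanib against none stayed at 0 in each. For cisplatin against vehicle, with 2 members called, the count was 1 with log2(FPKM + 0.1), equal totals without ribosomal features, equal totals of genes not on MT, median-of-ratios scaling, quantile normalization or an adipocyte covariate. It was 0 without a filter or with voom, 5 at a mean FPKM of at least 5, and 6 with only the groups compared. Calls over all genes moved too. Against 17 that rose in the fit used above, 2 to 9 rose in the settings with a count of 1. There were 3 without a filter, 0 with voom, 32 of 10270 at a mean FPKM of at least 5 and 33 with only the groups compared. For the combination against vehicle (7) it was 1 without a filter, 4 with quantile normalization or voom, 16 with only the groups compared and 0 with an adipocyte covariate, where 1 of all 14246 genes rose. Of all genes 259 rose in the fit used above, 91 without a filter, 185 with quantile normalization, 160 with voom and 261 with only the groups compared. For the combination against brivanib (12) it was 5 with only the groups compared, where 38 of all genes rose against 288. For cisplatin against none (17) it was 11 without a filter, where 447 of all genes rose against 707. Leaving out 1 library gave 0 to 6, 1 to 10, 1 to 20 and 11 to 24 in these 4 comparisons. The 6 was reached without brivanib 2, where 74 of all genes rose. The 20 and the 24 were reached without brivanib 3, where 370 and 1005 of all genes rose. Without brivanib 5 and combination 2, an alternative added after the data were seen, the first 3 counts were 0, 1 and 1, and the fourth was 14. Adding nuclear copies, also added later, gave 2, 7, 13 and 17. With a replicate block the counts were 0, 1, 1 and 3, and over all genes 0, 25, 51 and 50 rose. Same-numbered samples did not deviate together (correlations from -0.16 to 0.21), so the numbers were not taken as pairs. The causes of these differences were not tested. Depth limited the tRNAs most, 14 of which had fewer than 10 fragments in some library.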
